A study of Homo sapiens with 4 samples.

Results

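The retinoblastoma pocket protein genes RB1, RBL1 and RBL2 and the E2F transcription factor genes E2F1, E2F2, E2F3, E2F4, E2F5, E2F7 and E2F8 were followed in LNCaP prostate cancer cells and in their enzalutamide-resistant derivatives. These 10 genes were taken by symbol from the 33538 genes of the count tables, each symbol naming a single row. LNCaP is an androgen-sensitive line from a lymph node metastasis of prostate cancer, and enzalutamide is an antagonist of the androgen receptor. The 4 libraries were LNCaP kept for 48 h in 0.1% DMSO (called LNCaP), LNCaP kept for 48 h in 10 µM enzalutamide (LNCaP-ENZ48), and 2 enzalutamide-resistant derivatives, RES-A and RES-B. In culture both derivatives received 10 µM enzalutamide at each splitting or feeding. Per the study, the drug used to select resistant cells was enzalutamide itself for RES-A, at a dose raised stepwise, and the antagonist RD-162 for RES-B. Whether either resistant line is a single clone was not given in the sources used here. All cells passed through a live-cell sort before droplet capture with 3′ chemistry.

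Pocket proteins bind E2F factors and hold their target genes down. Phosphorylation of the pocket proteins by cyclin D and cyclin E kinases lets the activating factors E2F1, E2F2 and E2F3 drive genes for DNA replication, and E2F4 and E2F5 act mainly as repressors together with RBL1 (p107) and RBL2 (p130), the latter in the DREAM complex of resting cells. E2F7 and E2F8 are atypical factors that repress E2F targets late in S phase without the DP partner proteins of the other E2Fs. Loss of RB1 is a known route to androgen-independent growth in prostate cancer.

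Several genes of the family have E2F binding motifs in their own promoters. A search was made for 4 forms of the E2F motif, TTTCCCGC, TTTGGCGC, TTTCGCGC and TTTGCCGC, on both strands of the RefSeq promoter windows (GRCh38.p14, from 250 bases before to 50 bases after the start). Among 35116 such windows 3.31% held at least 1 match and 0.145% held at least 2. Of the 8 genes of the family with a window, which include RB1 with a window inside the gene, 4 had a match, namely E2F1, E2F2, E2F3 and RBL1. Over all genes with a window the share with a match was 3.99%. The stretches around their matches are shown because 3 of these genes, E2F1, E2F2 and RBL1, were among those with higher levels in dividing cells below. E2F3, with a match, was not among them, and E2F7 was, although its window held no match. Capitals mark the matches, and each stretch is written 5′ to 3′ on the strand of its gene.
E2F1, chr20:33686383-33686433, minus strand: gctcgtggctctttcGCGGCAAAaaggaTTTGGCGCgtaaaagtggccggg
RBL1, chr20:37095991-37096038, minus strand: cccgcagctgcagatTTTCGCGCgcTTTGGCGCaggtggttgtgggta
E2F2, chr1:23531253-23531290, minus strand: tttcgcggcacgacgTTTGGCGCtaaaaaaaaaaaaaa
E2F3, chr6:20401811-20401848, plus strand: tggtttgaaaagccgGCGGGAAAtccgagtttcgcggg
In E2F1 the matches began 33 and 20 bases before the start and lay on opposite strands. In RBL1 both matches lay on the gene's strand, 26 and 16 bases before the start. The windows of RBL2, E2F4 and E2F7 held none of these letters, and neither did a second window of E2F3. A match is a string of letters, not a measured binding site. E2F5 and E2F8 are named only, and for RB1 the table's window lay inside the gene and is not shown.

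Levels are counts of unique molecular identifiers (UMIs, 1 per captured transcript), added up over the cells of a library that passed the filters and scaled to a common library total (CPM). After the study's cell filters the libraries held 1782 to 4569 cells and 50208831 to 60838227 UMIs, with a median of 27080 UMIs per cell in LNCaP against 12138 to 13676 in the others. Any 2 libraries shared 2 to 9 barcodes among kept cells. All 9 luminal markers were detected in every library (1739 to 2735 CPM summed, over 10 CPM for 7 of 9 in RES-A and for 9 of 9 in the others). The basal, fibroblast, immune and endothelial lists summed to at most 3.59 CPM each, with KRT5, TP63, COL1A2, PTPRC, CD3E and CDH5 at 0. Each group was 1 library, so no test between groups was possible, and all intervals given are exact 95% intervals that cover counting error only, not the spread between cultures. A lower level in such a sum can come from fewer expressing cells or from less RNA per cell, which cannot be told apart here, and a level in 3′ tags is compared between libraries and not between genes.

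Because many E2F genes follow the cell cycle, cells were also split by whether they had a UMI of MKI67 or TOP2A, the proliferation markers. LNCaP had 61.3% of cells with neither, LNCaP-ENZ48 79.3%, RES-A 67.9% and RES-B 68.5%. LNCaP cells also held the most UMIs, under the study's limits as without any cell filter (median 25096). With every cell thinned to 5000 UMIs the shares were 78.5%, 85.9%, 75.9% and 77.4%. The share without markers was highest in LNCaP-ENZ48 at both depths, whereas LNCaP had the lowest share at full depth and RES-A after thinning.

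RB1 (ENSG00000139687, chr13:48303744-48599436, plus strand) encodes the retinoblastoma protein, the pocket protein that restrains the activating E2Fs. Its level was 9.82 CPM (8.97 to 10.7) in LNCaP, 11.0 CPM (10.2 to 11.9) in LNCaP-ENZ48, 10.5 CPM (9.64 to 11.3) in RES-A and 19.4 CPM (18.2 to 20.6) in RES-B. RES-B thus stood above the other 3 libraries, whose intervals overlapped one another. RB1 was 1.98-fold higher in RES-B than in LNCaP (log2 ratio 0.98, 0.83 to 1.14), and its log2 ratio of RES-B to RES-A was 0.89 (0.74 to 1.04). The log2 ratio of RES-A to LNCaP was 0.09 (-0.08 to 0.27), and with every cell thinned to 5000 UMIs, which gives cells equal weight, it was 0.37. RB1 transcripts were counted in every library, from 493 UMIs (LNCaP) to 1020 UMIs (RES-B).

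The higher RB1 level of RES-B was present in both cell classes. In cells without MKI67 or TOP2A UMIs RB1 stood at 9.18 CPM for LNCaP, 10.3 CPM for LNCaP-ENZ48, 9.45 CPM for RES-A and 17.7 CPM for RES-B. In cells with such UMIs it stood at 10.7, 13.8, 12.3 and 22.7 CPM in the same order. RES-B was the highest library in each class, with log2 ratios to LNCaP of 0.94 (0.74 to 1.16) and 1.08 (0.84 to 1.32). At full depth an RB1 UMI was found in 23.3% of LNCaP cells, 14.1% of LNCaP-ENZ48 cells, 12.3% of RES-A cells and 21.4% of RES-B cells. After thinning it was 4.15%, 5.08%, 5.32% and 8.96%, so that RES-B came out highest once depth was equal. All cells come from 1 line and its derivatives, and no cells known to lack RB1 were included. No background share could therefore be set beside these shares.

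RBL1 (ENSG00000080839, chr20:36996349-37095997, minus strand) encodes p107, a pocket protein made mostly in cycling cells. Its level was 5.66 CPM (5.02 to 6.35) in LNCaP, 4.83 CPM (4.30 to 5.42) in LNCaP-ENZ48, 9.56 CPM (8.77 to 10.4) in RES-A and 8.98 CPM (8.19 to 9.83) in RES-B. Both resistant lines were above both LNCaP libraries without overlap of the intervals. Against LNCaP the log2 ratio of RBL1 was 0.76 (0.55 to 0.97) in RES-A and 0.67 (0.45 to 0.88) in RES-B, and RES-B and RES-A did not differ beyond counting error (-0.09, -0.27 to 0.09). In cells without MKI67 or TOP2A UMIs the levels were 3.37, 3.33, 5.89 and 5.55 CPM, and in cells with them 8.94, 10.1, 16.3 and 15.4 CPM. The higher RBL1 of both resistant lines was therefore seen within each class. When cells were classed after thinning to 5000 UMIs and all their UMIs were then summed, a setting added after the data were seen, the log2 ratio to LNCaP in cells without marker UMIs was 0.56 (0.27 to 0.84) in RES-A and 0.55 (0.26 to 0.84) in RES-B. Thinning every cell to 5000 UMIs gave RBL1 log2 ratios over all cells of 0.49 for RES-A and 0.32 for RES-B, and in cells without markers of 0.22 and 0.19, all under 1.5-fold.

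RBL2 (ENSG00000103479, chr16:53433977-53491648, plus strand) encodes p130, the pocket protein of resting cells. Its level was 38.3 CPM (36.6 to 40.01) in LNCaP, 40.1 CPM (38.5 to 41.7) in LNCaP-ENZ48, 20.6 CPM (19.5 to 21.8) in RES-A and 30.1 CPM (28.6 to 31.6) in RES-B. RES-A was lowest, RES-B lay between it and the LNCaP libraries, and the LNCaP libraries overlapped. The log2 ratio of RBL2 to LNCaP was -0.89 (-0.997 to -0.79) for RES-A and -0.35 (-0.44 to -0.25) for RES-B. The order held in cells without MKI67 or TOP2A UMIs, at 38.3, 41.0, 20.4 and 30.9 CPM, and in cells with them, at 38.1, 36.8, 21.1 and 28.6 CPM. An RBL2 UMI was found in 62.0%, 41.4%, 22.2% and 31.5% of cells at full depth, and after thinning in 17.7%, 17.8%, 10.1% and 14.0%, in the same order of libraries. RB1 in RES-B was thus above LNCaP and RBL2 in RES-A below it, in both classes.

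**Figure D1:**
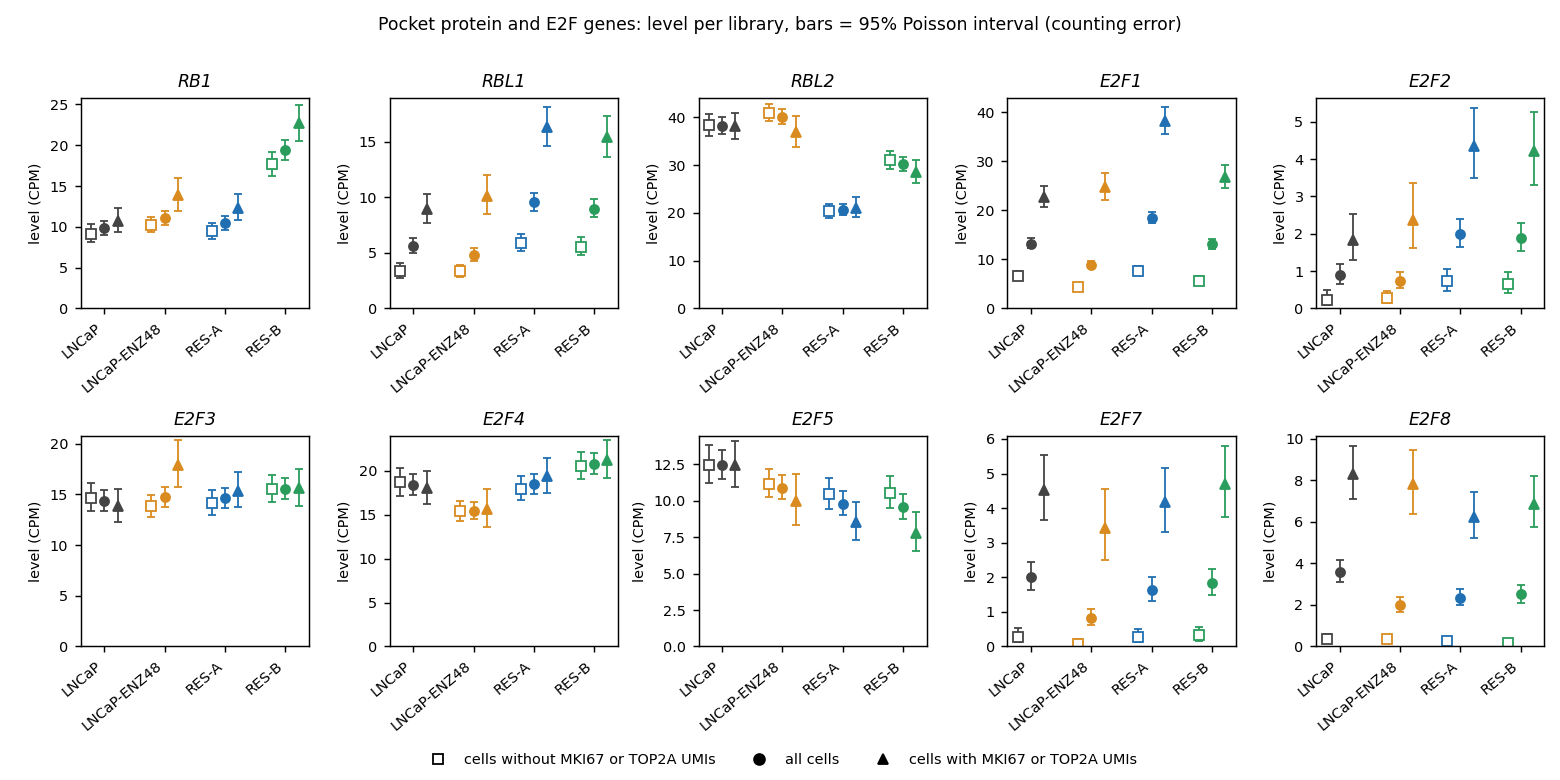
Level of each of the 10 genes in CPM (vertical axis, from 0, scaled per gene) in the 4 libraries (horizontal axis): open squares are cells without MKI67 or TOP2A UMIs, circles all cells, triangles cells with such UMIs, and bars exact 95% Poisson intervals of the counts. RB1 is highest in RES-B (19.4 CPM in all cells) and RBL2 lowest in RES-A (20.6 CPM) in both classes, whereas E2F1, E2F2, E2F7, E2F8 and RBL1 separate by class in every library.

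E2F1 (ENSG00000101412, chr20:33675477-33686385, minus strand) encodes the best known activating E2F. Its level was 13.2 CPM (12.2 to 14.3) in LNCaP, 8.94 CPM (8.21 to 9.73) in LNCaP-ENZ48, 18.5 CPM (17.4 to 19.6) in RES-A and 13.0 CPM (12.1 to 14.1) in RES-B. RES-A was highest and LNCaP-ENZ48 lowest, while LNCaP and RES-B overlapped (log2 ratio -0.02, -0.18 to 0.14). Against LNCaP the log2 ratio was -0.56 (-0.73 to -0.40) in LNCaP-ENZ48 and 0.48 (0.34 to 0.62) in RES-A. Neither reached 1.5-fold.

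In cells that carried proliferation markers, E2F1 after 48 h of enzalutamide differed from LNCaP by less than counting error. With MKI67 or TOP2A UMIs, E2F1 stood at 22.7 CPM (20.7 to 24.9) in LNCaP and 24.7 CPM (22.1 to 27.5) in LNCaP-ENZ48, a log2 ratio of 0.12 (-0.09 to 0.33). Without them it stood at 6.61 CPM (5.72 to 7.61) and 4.47 CPM (3.89 to 5.12), a log2 ratio of -0.56 (-0.85 to -0.28). The intervals of these ratios do not overlap, and the share of cells with markers was itself lowest in LNCaP-ENZ48, whose part in the difference over all cells was not tested. With cells classed at 5000 UMIs the log2 ratio in cells without markers was -0.71 (-0.93 to -0.50). In RES-A E2F1 was 38.3 CPM (35.6 to 41.1) in cells with markers, a log2 ratio of 0.75 (0.58 to 0.92) to LNCaP, and 7.72 CPM (6.86 to 8.67) in cells without, a log2 ratio of 0.22 (-0.04 to 0.49). RES-B reached 26.8 CPM with markers and 5.69 CPM without.

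E2F2 (ENSG00000007968, chr1:23506438-23531233, minus strand), a second activating factor, was scarce. LNCaP had 45 UMIs of it, LNCaP-ENZ48 45, RES-A 115 and RES-B 99, or 0.896 CPM (0.654 to 1.20), 0.740 CPM (0.540 to 0.990), 2.01 CPM (1.66 to 2.41) and 1.88 CPM (1.53 to 2.29). Both resistant lines stood above both LNCaP libraries. The log2 ratio of E2F2 to LNCaP was 1.16 (0.65 to 1.69) in RES-A and 1.07 (0.55 to 1.61) in RES-B. In cells with MKI67 or TOP2A UMIs the levels were 1.85, 2.38, 4.36 and 4.20 CPM. In cells without them only 7, 13, 27 and 22 UMIs were left, and with the cells classed at 5000 UMIs the log2 ratio to LNCaP there was 0.86 (0.09 to 1.67) for RES-A and 0.75 (-0.05 to 1.57) for RES-B, the latter within counting error. Thinning every cell left 5 and 11 UMIs of E2F2 in LNCaP and RES-A in that class, too few to give a direction.

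E2F3, on chromosome 6, the third activating factor, did not differ between the libraries beyond counting error in all cells. Its level was 14.3 CPM (13.3 to 15.4) in LNCaP, 14.7 CPM (13.8 to 15.7) in LNCaP-ENZ48, 14.6 CPM (13.6 to 15.6) in RES-A and 15.5 CPM (14.5 to 16.6) in RES-B. The largest log2 ratio to LNCaP was 0.12 (-0.03 to 0.26), in RES-B. In cells with MKI67 or TOP2A UMIs E2F3 was 17.9 CPM in LNCaP-ENZ48 against 13.8 CPM for LNCaP, a log2 ratio of 0.37 (0.12 to 0.63).

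E2F4 and E2F5 encode the repressor-type E2Fs. E2F4, on chromosome 16, stood at 18.4 CPM (17.3 to 19.6) in LNCaP, 15.5 CPM (14.5 to 16.5) in LNCaP-ENZ48, 18.5 CPM (17.4 to 19.6) in RES-A and 20.8 CPM (19.6 to 22.1) in RES-B. LNCaP-ENZ48 was the lowest, with a log2 ratio to LNCaP of -0.25 (-0.39 to -0.12), and RES-B the highest, with 0.17 (0.05 to 0.30). E2F5 stood at 12.4 CPM (11.5 to 13.5), 10.9 CPM (10.1 to 11.8), 9.78 CPM (8.99 to 10.6) and 9.59 CPM (8.77 to 10.5) in the same order. All 3 treated or resistant libraries were below LNCaP, with E2F5 log2 ratios of -0.19 (-0.35 to -0.03), -0.35 (-0.51 to -0.18) and -0.38 (-0.55 to -0.21). Scaling by TMM or DESeq2 in place of total UMIs moved the median of all genes by 0.10 in LNCaP-ENZ48 against LNCaP. In RES-B against LNCaP it moved by -0.11 (TMM) and -0.10 (DESeq2). The E2F5 ratio of LNCaP-ENZ48 and the E2F4 ratio of RES-B were not far beyond such shifts. In cells with MKI67 or TOP2A UMIs the E2F5 log2 ratio of RES-B to LNCaP was -0.67 (-0.98 to -0.37), and in cells without them -0.24 (-0.45 to -0.03).

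E2F7, on chromosome 12, and E2F8, on chromosome 11, encode the atypical repressors. LNCaP had 101 UMIs of E2F7, LNCaP-ENZ48 50, RES-A 94 and RES-B 97, or 2.01 CPM (1.64 to 2.44), 0.822 CPM (0.610 to 1.08), 1.64 CPM (1.32 to 2.01) and 1.85 CPM (1.496 to 2.25). LNCaP-ENZ48 stood below the other 3, with a log2 ratio to LNCaP of -1.29 (-1.81 to -0.79). E2F8 had 181, 122, 135 and 132 UMIs in the same order, or 3.60 CPM (3.099 to 4.17), 2.01 CPM (1.67 to 2.39), 2.35 CPM (1.97 to 2.79) and 2.51 CPM (2.10 to 2.98). LNCaP was highest for E2F8, and the log2 ratio to it was -0.85 (-1.19 to -0.51) for LNCaP-ENZ48, -0.61 (-0.95 to -0.29) for RES-A and -0.52 (-0.86 to -0.19) for RES-B. Between 86.1% and 95.5% of the UMIs of either gene in a library came from cells with MKI67 or TOP2A UMIs. In those cells, classed at full depth, LNCaP-ENZ48 did not differ from LNCaP beyond counting error, with log2 ratios of -0.40 (-0.94 to 0.12) for E2F7 and -0.09 (-0.45 to 0.27) for E2F8. In cells without the markers 4 to 11 UMIs of E2F7 and 6 to 17 of E2F8 were counted per library, and every ratio to LNCaP there had an interval that included 0. With cells classed at 5000 UMIs, E2F7 in LNCaP-ENZ48 was at -1.68 (-3.08 to -0.42, from 8 and 19 UMIs) there, and E2F8 at -0.72 (-1.51 to 0.06). In cells with the markers so classed, E2F7 was 4.59 CPM in LNCaP-ENZ48 against 6.93 CPM in LNCaP (42 and 82 UMIs). E2F8 was 10.4 against 12.5 CPM. No interval was computed for these 2 ratios, so a lower E2F7 in dividing cells was not settled.

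The number of differences in the family was read against all genes. Of all genes that averaged 1 CPM or more, 2.16% were at least 1.5-fold higher and 4.96% at least 1.5-fold lower in LNCaP-ENZ48 than in LNCaP. Of the 10 genes of the family, of which E2F2 was under that minimum here, 0 were higher and 2 lower, E2F7 and E2F8. RES-A against LNCaP had 2 of 10 higher (RBL1, E2F2) beside 16.5% of all genes, and 2 of 10 lower (RBL2, E2F8) beside 14.7%. RES-B against LNCaP had 3 of 10 higher (RB1, RBL1, E2F2) beside 17.8%, and 0 lower beside 11.5% (1 lower, E2F8, under TMM or DESeq2 scaling). Between the resistant lines 1 of 10 was higher in RES-B (RB1) beside 14.4% of all genes, and 0 lower beside 9.72%. The median log2 ratios of the 10 genes were -0.24, 0.01, 0.05 and 0.09 in these comparisons, beside -0.08, 0.02, 0.10 and 0.08 over all genes.

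In cells without MKI67 or TOP2A UMIs the counts were similar, although E2F2, E2F7 and E2F8 were under 1 CPM there. LNCaP-ENZ48 had 0 of 10 higher (2.67% of all genes) and 1 lower (3.84%), E2F7 with 4 against 8 UMIs. RES-A had 2 higher (18.3%), RBL1 and E2F2, and 1 lower (13.8%), RBL2. RES-B had 3 higher (20.2%), RB1, RBL1 and E2F2, and 1 lower (11.1%), E2F8 with 6 against 10 UMIs. Between RES-B and RES-A, RB1 and RBL2 were higher in RES-B (14.3%) and 0 were lower (10.5%). In cells with the markers, classed at full depth, LNCaP-ENZ48 had 0 of 10 past 1.5-fold in either direction (2.87% higher and 5.31% lower over all genes). RES-A had 3 higher (16.1%), RBL1, E2F1 and E2F2, and 1 lower (17.2%), RBL2. RES-B had 3 higher (17.3%), RB1, RBL1 and E2F2, and 1 lower (12.9%), E2F5. Between the resistant lines RB1 was higher in RES-B (16.4%) and 0 were lower (9.98%). With cells classed at 5000 UMIs, E2F7 in cells with markers was 4.59 CPM in LNCaP-ENZ48 against 6.93 CPM in LNCaP, just past 1.5-fold.

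The difference between cells with and without proliferation markers was larger than that between libraries for 5 of the 10 genes. E2F8 and E2F7 had the widest gaps, with log2 ratios of cells with to cells without the markers of 4.45 to 5.30 and 3.87 to 5.34 over the 4 libraries. E2F2 followed at 2.59 to 3.12, E2F1 at 1.78 to 2.47 and RBL1 at 1.41 to 1.60. For RB1 the log2 ratio was 0.23 (-0.04 to 0.49) within LNCaP, 0.43 (0.18 to 0.68) within LNCaP-ENZ48, 0.39 (0.15 to 0.62) within RES-A and 0.36 (0.18 to 0.54) within RES-B. RBL2 and E2F4 stayed between -0.15 and 0.11, and E2F3 between -0.08 and 0.37. E2F5 was lower in cells with the markers in RES-A (-0.30, -0.56 to -0.03) and RES-B (-0.43, -0.72 to -0.15), and within counting error of 0 in LNCaP (-0.24 to 0.23). Classed at 5000 UMIs the log2 ratios were 3.17 to 4.31 for E2F8, 3.28 to 4.89 for E2F7 and 1.22 to 2.02 for E2F1. MKI67 and TOP2A are themselves cycle genes, so the class was set by the cycle and its gaps describe how closely each gene follows it.

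**Figure D2:**
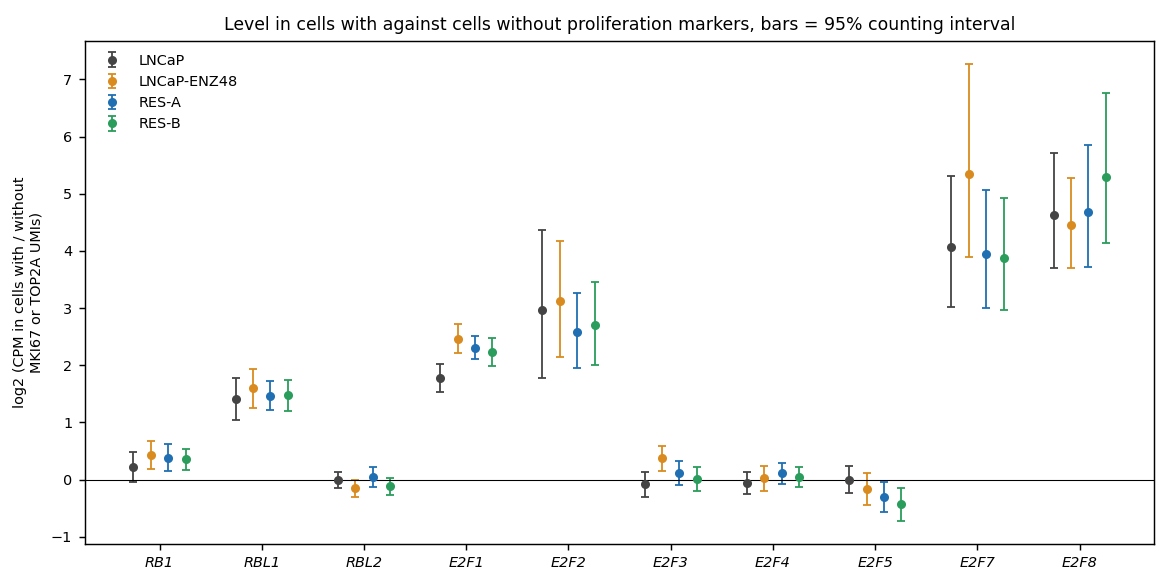
Log2 ratio of the level in cells with to the level in cells without MKI67 or TOP2A UMIs (vertical axis) for each gene (horizontal axis) and library (colour), with exact 95% counting intervals. E2F7 and E2F8 lie above 3.8 in all 4 libraries, E2F2, E2F1 and RBL1 between 1.41 and 3.12, and the other genes between -0.43 and 0.43.

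E2F1 also differed in where in the cycle it was found. Cells were called G1, S or G2/M from published lists of phase genes with the family's own genes left out, which cuts a continuous score into ranges. All libraries were scored together, and 6.51% of LNCaP cells, 4.19% of LNCaP-ENZ48 cells, 10.4% of RES-A cells and 6.50% of RES-B cells were called S. In these cells E2F1 reached 82.7 CPM (73.8 to 92.5), 83.1 CPM (73.1 to 94.2), 71.6 CPM (65.3 to 78.4) and 82.6 CPM (74.0 to 91.8), in the order LNCaP, LNCaP-ENZ48, RES-A, RES-B, with overlapping intervals. In cells called G2/M it was 13.3 CPM (11.2 to 15.7) in LNCaP, 15.8 CPM (13.1 to 19.0) in LNCaP-ENZ48, 31.8 CPM (28.7 to 35.1) in RES-A and 18.7 CPM (16.1 to 21.5) in RES-B. RES-A was thus apart from the others in G2/M but not in S. The cells called G2/M also differed between libraries in their markers. Those with no MKI67 or TOP2A UMI made up 2.09%, 5.4%, 7.95% and 4.38% of them, in the same order. Their MKI67 level was 222.0, 191.5, 168.6 and 235.6 CPM, lowest in RES-A. Whether the mix of cells called G2/M had a part in the E2F1 difference was not tested. In cells called G1 E2F1 was 5.98, 3.55, 5.16 and 4.06 CPM, where the intervals of LNCaP and RES-A overlapped.

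RBL1 was likewise highest in S, at 22.8 CPM (18.2 to 28.2) in LNCaP, 21.9 CPM (16.9 to 27.9) in LNCaP-ENZ48, 24.3 CPM (20.7 to 28.4) in RES-A and 35.9 CPM (30.4 to 42.2) in RES-B. In G2/M it was 7.49, 8.72, 15.7 and 14.1 CPM, and in G1 3.36, 3.25, 5.05 and 4.71 CPM. Both resistant lines were above LNCaP in G1 and G2/M, and RES-B alone in S. RB1 in RES-B stood at 17.5 CPM (16.2 to 18.9) in G1, 31.1 CPM (25.9 to 37.0) in S and 21.7 CPM (18.9 to 24.7) in G2/M, above the other 3 libraries in each phase (at most 15.2 CPM). E2F7 and E2F8 were close to absent from G1, with 3 to 9 and 5 to 15 UMIs per library, and reached 5.08 to 11.9 CPM and 6.62 to 15.8 CPM in S. RES-A had the lowest S level of both atypical genes, E2F7 at 5.08 CPM (3.50 to 7.14) and E2F8 at 6.62 CPM (4.79 to 8.92), each overlapping at least 1 other library.

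**Figure D3:**
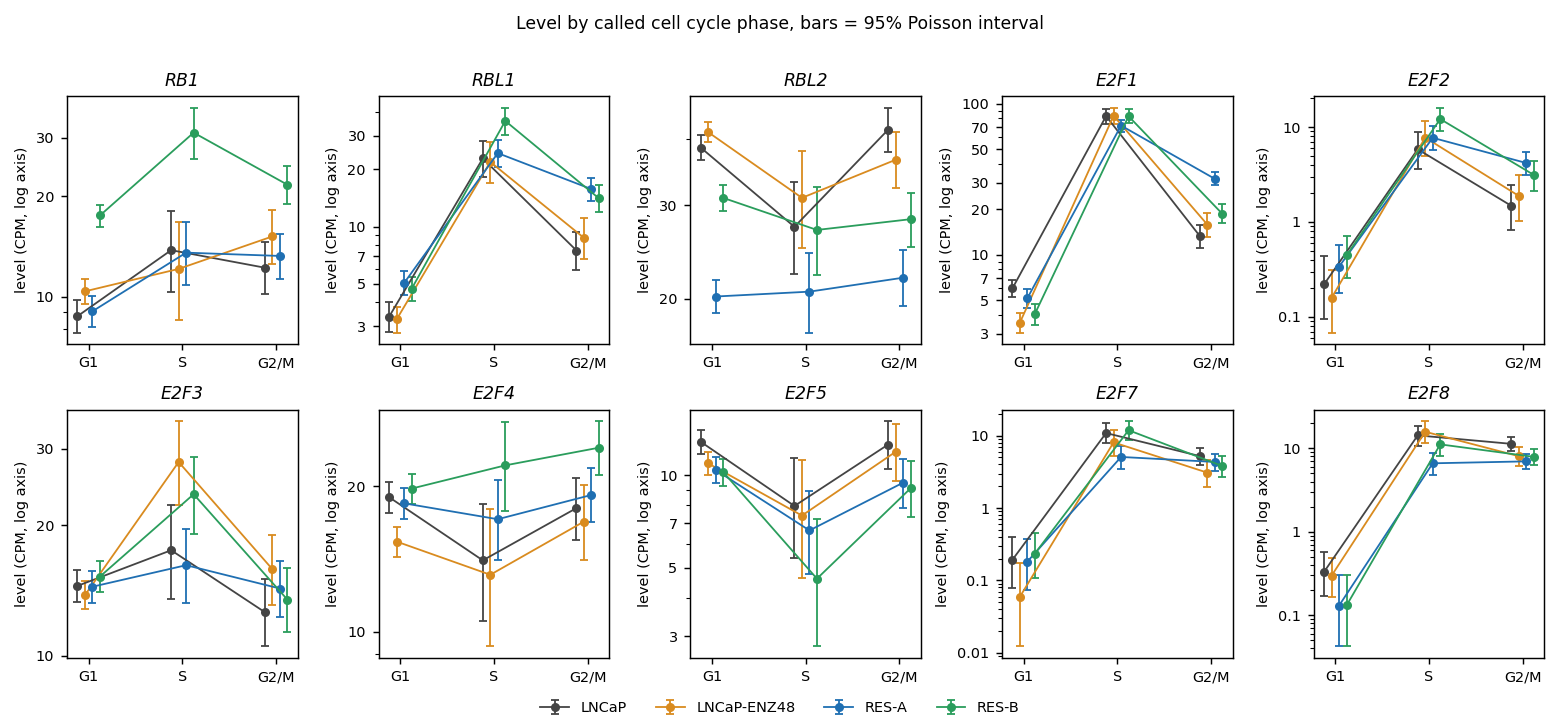
Level in CPM (vertical axis, logarithmic, scaled per gene) of each gene in cells called G1, S and G2/M (horizontal axis) in the 4 libraries (colours), with exact 95% Poisson intervals. E2F1, E2F2, E2F7, E2F8 and RBL1 are lowest in G1 in every library, RB1 is highest in RES-B in all 3 phases, and E2F1 in G2/M is highest in RES-A (31.8 CPM).

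Each gene was set beside the 25 expressed protein-coding genes on either side of it on its chromosome. Around RB1 these genes spanned 61.0 Mb of chromosome 13. In RES-A against LNCaP their median log2 ratio was -0.56, against 0.02 over all expressed protein-coding genes, while RB1 itself was at 0.09, and 4 of the 50 had a higher ratio than RB1. In RES-B the same neighbours were at 0.07 and RB1 at 0.98, with 6 of 50 above it. RB1 was thus higher than its surroundings in both resistant lines, by 0.65 in RES-A and 0.91 in RES-B. With 10 neighbours on each side the value in RES-B was 0.70. Between the resistant lines the neighbours differed too, with a median log2 ratio of RES-B to RES-A of 0.65 against 0.89 for RB1, and 13 of 50 lay above RB1. DNA copy number was not analysed here.

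For RBL2 the neighbours were at 0.05 in RES-A and 0.29 in RES-B, and RBL2 was below them by 0.94 and 0.64. RBL1 exceeded its neighbours, by 0.70 for RES-A and 0.50 for RES-B. The neighbours of E2F2 were at 0.05 in RES-A, where E2F2 exceeded them by 1.11, but at 0.58 in RES-B, where it exceeded them by 0.49. E2F8 in RES-B was 0.22 below neighbours that were themselves at -0.31. The lower E2F8 and the higher E2F2 of RES-B thus went with a like-signed median of the genes around them, whose part in either was not tested.

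**Figure D4:**
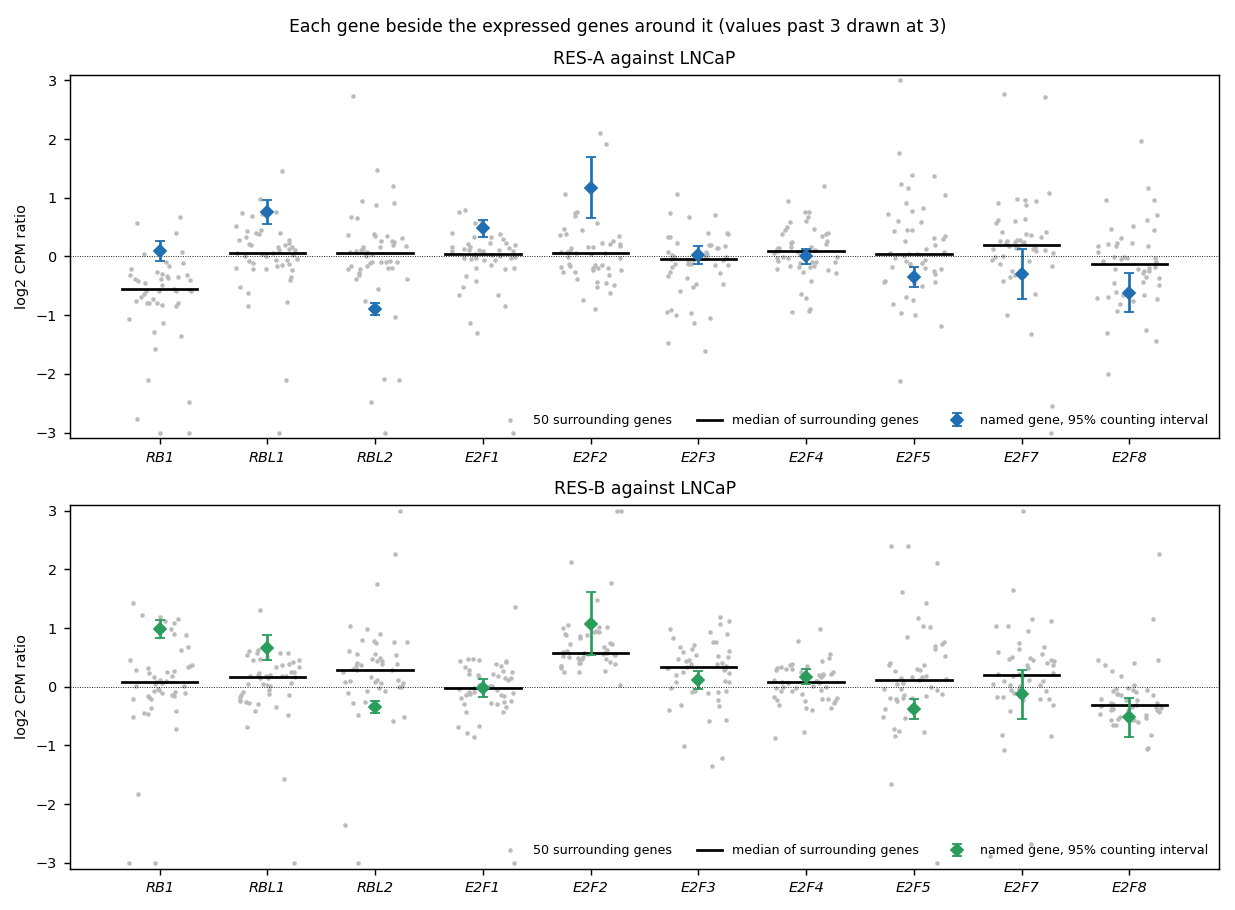
Log2 CPM ratio to LNCaP (vertical axis) of each gene (coloured diamond, with its exact 95% counting interval), of the 50 expressed genes around it (grey points, spread sideways at random) and their median (black line), for RES-A and RES-B. RB1 lies above its neighbours' median in both panels (0.09 against -0.56, and 0.98 against 0.07), and RBL2 lies below its own.

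E2F factors other than E2F7 and E2F8 bind DNA as dimers with a DP protein. TFDP1, the main DP gene, stood at 60.8, 54.0, 48.2 and 35.5 CPM from LNCaP through LNCaP-ENZ48 and RES-A to RES-B, lowest in RES-B with a log2 ratio to LNCaP of -0.78 (-0.86 to -0.69). TFDP2 was 54.5, 52.5, 53.1 and 58.5 CPM in the same order. E2F6, a repressor that binds no pocket protein, was 7.91, 7.27, 8.95 and 11.2 CPM. Of these 3 genes TFDP1 in RES-B passed 1.5-fold against LNCaP in all cells, beside 11.5% of all genes lower, and the others did not.

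MuvB, the core that RBL2 joins in the DREAM complex, and its later partners MYBL2 and FOXM1 were read next. Of 6 such genes with at least 1 CPM, 0 were higher and 1 lower in LNCaP-ENZ48, 1 higher and 0 lower in RES-A, and 2 higher and 0 lower in RES-B, each against LNCaP. The shares of all genes higher and lower were 2.16% and 4.96%, 16.5% and 14.7%, and 17.8% and 11.5%. FOXM1, an activator of mitotic genes, was 12.2 CPM in LNCaP-ENZ48 against 20.6 CPM for LNCaP (log2 ratio -0.75, -0.89 to -0.61) in all cells. Within the classes 0 of 6 were lower in LNCaP-ENZ48. The lowest log2 ratio of the 6 was -0.09 in cells with MKI67 or TOP2A UMIs (5.31% of all genes lower). In cells without them it was -0.47 (3.84% lower). MYBL2, an E2F target and partner of MuvB, was 13.2 CPM in LNCaP, 26.1 CPM in RES-A (0.98, 0.84 to 1.11) and 20.5 CPM in RES-B (0.63, 0.49 to 0.77). RBBP4, a histone-binding protein of MuvB and of other complexes, was 93.6 CPM in LNCaP and 158.1 CPM in RES-B (0.76, 0.70 to 0.81). LIN37 had 10 to 23 UMIs per library, with a log2 ratio of RES-B to RES-A of -1.08 (-2.31 to 0.05).

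Among the kinases that phosphorylate pocket proteins and their cyclins, RES-A had the most differences. In all cells of RES-A 5 of 7 genes with at least 1 CPM were at least 1.5-fold above LNCaP and 0 below, with a median log2 ratio of 0.64 beside 0.02 over all genes (16.5% of all genes were that much higher). They were CDK6 (2.14, 1.59 to 2.72, from 33 and 166 UMIs), CCNE2 (1.27, 1.03 to 1.51), CCND3 (0.74, 0.55 to 0.94), CCNE1 (0.64, 0.45 to 0.82) and CDK4 (0.60, 0.54 to 0.65). CDK4 lay close to the 1.5-fold limit, and TMM scaling moved the median of all genes in this comparison by -0.05. RES-B had 2 of 6 higher (17.8% of all genes) and 1 lower (11.5%), with a median log2 ratio of 0.10, as over all genes (0.10). These were CCNE2 (1.29, 1.05 to 1.53) and CCND3 (0.90, 0.71 to 1.09) above LNCaP and CCND1, cyclin D1, below it, at 149.0 against 271.8 CPM (-0.87, -0.91 to -0.83). CCND2 had 3 UMIs in RES-A and 0 in the other 3 libraries, where 0 allows up to 3 UMIs. LNCaP-ENZ48 had 0 of 6 past 1.5-fold in either direction, beside 2.16% of all genes higher and 4.96% lower. By class, RES-A had 3 of 7 higher in cells without MKI67 or TOP2A UMIs (18.3% of all genes). In cells with them it had 5 of 7 higher (16.1%), and 0 were lower in either class (13.8% and 17.2%). RES-B had 2 of 6 (20.2%) and 3 of 7 (17.3%) higher, and 1 lower in each (11.1% and 12.9%). LNCaP-ENZ48 had 0 of 6 (2.67%) and 1 of 6 (2.87%) higher, and 0 lower (3.84% and 5.31%).

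Inhibitors of those kinases differed in both directions. In all cells RES-A had 2 of 6 at least 1.5-fold lower than LNCaP, beside 14.7% of all genes, and 0 higher, namely CDKN1B (p27) at 20.8 against 34.5 CPM (log2 ratio -0.73, -0.84 to -0.63) and CDKN2D (p19) at 16.3 against 29.8 CPM (-0.87, -0.99 to -0.76). RES-B had 3 of 6 lower, beside 11.5%, and 0 higher, namely CDKN1A (p21) at 19.2 against 57.8 CPM (-1.59, -1.69 to -1.49), CDKN2D (-0.93, -1.05 to -0.80) and CDKN1C (-0.63, -0.98 to -0.28). CDKN1A, CDKN1C and CDKN2A were also lower in RES-B than in RES-A, 3 of 6 beside 9.72% of all genes. Their log2 ratios were -1.52 (-1.62 to -1.42), -0.77 (-1.10 to -0.44) and -0.64 (-0.73 to -0.56). CDKN2C (p18) was above LNCaP in both lines, with log2 ratios of 0.40 (0.24 to 0.57) in RES-A and 0.49 (0.32 to 0.66) for RES-B, and in cells without MKI67 or TOP2A UMIs it passed 1.5-fold, at 0.83 (0.53 to 1.14) and 1.01 (0.71 to 1.32). In those cells RES-A had 1 of 6 higher (18.3% of all genes) and 1 lower (13.8%), and RES-B 1 higher (20.2%) and 2 lower (11.1%). CDKN2B, near 1 CPM or less, had 23 UMIs in LNCaP, 63 in LNCaP-ENZ48 and 50 in RES-B. The log2 ratio of RES-B to LNCaP was 1.05 (0.31 to 1.83). LNCaP-ENZ48 was also more than 1.5-fold above LNCaP, from totals of 60838227 and 50208831 UMIs. Of inhibitors with at least 1 CPM, LNCaP-ENZ48 had 0 of 6 higher in all cells (2.16% of all genes). It had 1 of 6 higher in cells without the markers (2.67%) and 1 of 7 in cells with them (2.87%), and 0 lower. RES-B, with the highest RB1, thus had the lowest CDKN1A and CCND1 of the 4 libraries.

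A list of 36 textbook E2F targets, genes of replication and its licensing, was read for those averaging 10 CPM or more. In LNCaP-ENZ48 against LNCaP 0 of 24 were at least 1.5-fold higher and 7 lower, beside 0.796% and 3.30% of all genes at that level. All 24 ratios were below 0, with a median of -0.44 beside -0.07 over all genes at that level. CLSPN (-0.84) and MCM5 (-0.81) were lowest and SLBP (-0.11) and PCNA (-0.19) highest. RES-A against LNCaP had 16 of 30 higher and 1 lower, beside 11.6% and 11.3%, with a median of 0.63 beside 0.02. CDK1, the mitotic kinase, was at 222.3 against 72.8 CPM (1.61, 1.56 to 1.67) and TK1, thymidine kinase, at 109.6 against 38.8 CPM (1.498, 1.42 to 1.57), whereas RFC3 (-1.03) and RRM1 (-0.33) were lowest.

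RES-B against LNCaP had 6 of 26 E2F targets higher and 0 lower, beside 14.4% and 8.14%, with a median of 0.22 beside 0.11 over all such genes. GMNN, the licensing inhibitor geminin, was at 64.3 against 30.7 CPM (1.07, 0.98 to 1.15) and CDC6 at 19.5 against 9.88 CPM (0.98, 0.82 to 1.14), with CCNA2 (-0.55) and CDT1 (-0.53) at the low end. Between the resistant lines 1 of 29 was higher in RES-B and 8 lower, beside 11.9% and 5.87%, with a median of -0.42 beside 0.09. GMNN (1.05) and RFC3 (0.54) led in RES-B, and CDK1 (-1.18) and TK1 (-0.91) were lowest. E2F1 itself was also lowest in LNCaP-ENZ48 and highest in RES-A, which describes 4 libraries and carries no test.

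Class again mattered for the targets of LNCaP-ENZ48. Their median log2 ratio to LNCaP was 0.13 in cells with MKI67 or TOP2A UMIs (30 genes) and -0.25 in cells without (13 genes). For RES-A the medians were 0.72 and 0.53, for RES-B 0.34 and 0.16, and for RES-B against RES-A -0.49 and -0.36. Of these 4 comparisons that of LNCaP-ENZ48 with LNCaP differed in sign between the classes, over different numbers of genes. Over all genes averaging 10 CPM or more the medians with and without markers were -0.04 and -0.05 for LNCaP-ENZ48 and -0.0009 and 0.05 for RES-A. For RES-B they were 0.10 and 0.14, and for RES-B against RES-A 0.10 and 0.08. The target median of RES-B in cells without markers was thus close to that of all genes. Over the 32 targets with a promoter window, 65.6% held a match to the E2F motifs above, against 3.99% of all genes with a window. The list was made of known E2F targets, so this share describes the list and bears on no difference between libraries.

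**Figure D5:**
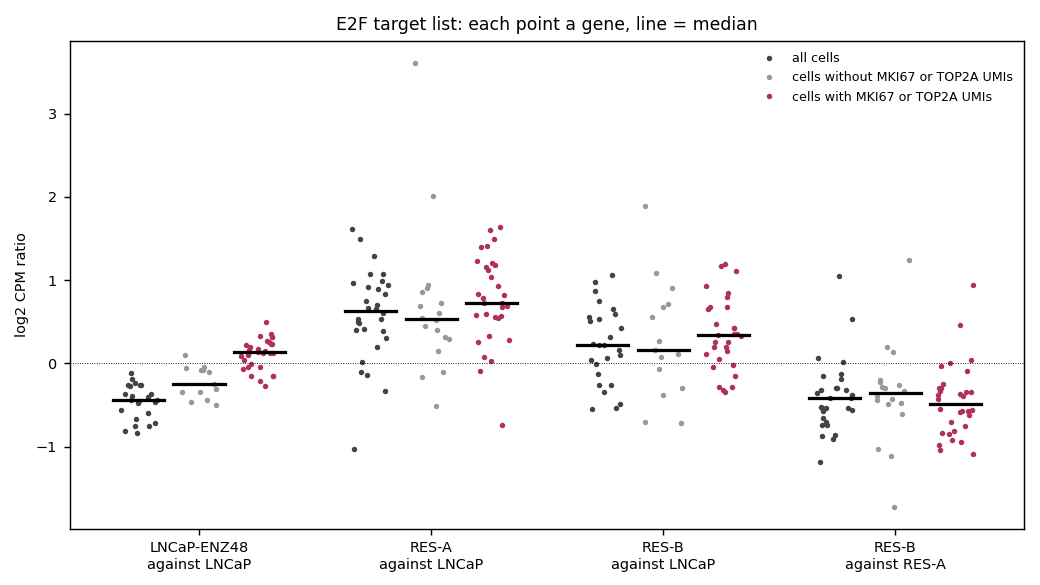
Log2 CPM ratio (vertical axis) of each E2F target gene averaging 10 CPM or more (points) in 4 comparisons (horizontal axis), in all cells and in cells without or with MKI67 or TOP2A UMIs (colours), with black lines at the medians. In LNCaP-ENZ48 the medians are -0.44 in all cells and 0.13 in cells with the markers, and in RES-A all 3 medians lie above 0.5.

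Genes with the pattern most like that of a gene of the family were found by the smallest root mean square difference of centred log2 CPM over 8 sums, the 4 libraries with and without the markers, among 7513 genes. E2F1 was nearest to XRCC2 (0.11), HELLS (0.13) and ATAD5 (0.14), and RBL1 to DTYMK (0.14), CEP78 (0.15) and RFC2 (0.15). RB1 was nearest to TPP2 (0.15), SZRD1 (0.16) and NCBP1 (0.16), and RBL2 to CHMP5, ATM (both 0.07) and RCL1 (0.08). Among the rest, E2F3 was nearest to ATP1B3 (0.07), E2F4 to SRSF1 (0.03) and E2F5 to RNF44 (0.08). E2F2, E2F7 and E2F8 had under 20 UMIs in at least 1 sum and were not matched. The 8 sums share libraries, so the values describe likeness and carry no test.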

How the data were processed

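Raw counts of UMIs per gene and cell were deposited by the authors for 4 libraries, made with Cell Ranger 3.0.2 and a GRCh38 reference per the labels. The genes and their pathway lists were chosen with earlier results of these data known. Cells were kept by the study's limits per library on genes, UMIs and mitochondrial share, which run from 16000 to 50000 UMIs in LNCaP and from 5000 to 25000 in the others. Counts were summed per library and class and scaled to CPM by total UMIs. Intervals were exact Poisson for levels, exact binomial for shares and exact conditional binomial for ratios. The study's test over cells was not used, since cells are not replicates. Doublets were not called, and an alternative left out the 5% deepest cells of each library. Thinning used 5000 UMIs per cell, and phases were called on thinned cells with scanpy 1.11.5 (41 S and 54 G2/M genes). TMM factors came from edgeR 4.0.16 and size factors from DESeq2 1.42.0. Genes named from the MuvB, kinase and inhibitor lists were those past 1.5-fold in any comparison, and from the targets the 2 highest and the 2 lowest per comparison. Gene positions came from GENCODE 44, in which LPAR6 and RCBTB2 overlap RB1 on the opposite strand. The ratio script was tested on simulated data.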

Additional observations from a re-analysis of the deposited data

How the results depend on the processing

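No paired analysis was possible because each group was 1 library, and no library could be left out for the same reason. Classing cells at 5000 UMIs with all their UMIs summed was added after the data were seen. The medians of the 10 genes, the E2F target medians in all cells and the all-cell counts of members at least 1.5-fold higher kept within 1.5 times or within the counting interval under the alternatives run for them. The members behind a count could change: after thinning E2F1 passed 1.5-fold in RES-A against LNCaP, and RBL1 did so in neither resistant line. No alternative was run for the E2F target medians of the cell classes or for the counts of members in cells with the markers. None was run either for the DP partner, MuvB, kinase and inhibitor lists. Of 40 ratios of members between libraries, thinning took 13 in all cells and 8 in cells without the markers out of their counting interval. Small counts moved as follows. In all cells, 1 member was at least 1.5-fold lower in RES-A than in LNCaP without the 5% deepest cells, 1 in RES-B than in LNCaP after thinning, TMM or DESeq2 scaling, and 1 in RES-B than in RES-A after thinning. In cells without MKI67 or TOP2A UMIs, the count lower in LNCaP-ENZ48 was 2 after thinning, without the deepest cells and in cells called G1, and 3 with the added classing. For RES-A against LNCaP it was 2 lower without a cell filter, after thinning and in G1 cells, 0 higher after thinning and 1 higher with the added classing. For RES-B against LNCaP it was 1 higher after thinning and 0 lower with the added classing. For RES-B against RES-A it was 1 lower with 1 filter for all libraries and without a filter, 2 lower after thinning, and 1 higher after thinning, TMM or DESeq2 scaling. The share of cells without the markers was 64.6% in LNCaP without a filter and 78.5% thinned, 78.0% in LNCaP-ENZ48 with 1 filter and 85.9% thinned, 75.9% in RES-A thinned and 69.8% without the deepest cells, and 67.0% in RES-B with 1 filter and 77.4% thinned. Signs reversed after thinning for E2F2 in RES-A against LNCaP in cells without the markers (-0.17), and for cells with against without them for RBL2 (0.024) and E2F3 (-0.071) in LNCaP-ENZ48 and RB1 in RES-B (-0.098). Thinning keeps fewer UMIs, and beyond that the cause was not tested. TMM moved the median of all genes by -0.11 in RES-B against LNCaP (-0.13 in cells without the markers), and DESeq2 moved it by 0.10 in LNCaP-ENZ48. Depth limits E2F2, E2F7 and E2F8, with 4 to 27 UMIs per library in cells without the markers.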
